A study of Homo sapiens with 192 samples.

Results

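The protein-coding promoters that were open in the largest numbers of nuclei in a HAP1 single-nucleus ATAC-seq experiment were examined. They were the accessible features of chromosomes 1 to 22 that contained the start of a protein-coding gene on 1 strand only and held at least 1 read pair in 20 or more nuclei. Of 6423 such single-direction promoters, 574 met this rule, among 80971 features of 1001 bp in all. The name single-direction refers to protein-coding starts only. A long noncoding RNA started on the opposite strand in 27.5% of the 574 and 17.2% of the 6423. They were set against the 1285 single-direction promoters seen in 2 to 4 nuclei. The members were chosen by their number of positive nuclei, so that number and the read pairs behind it are a description of them and not a finding.

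HAP1 is a human adherent cell line with a near-haploid genome that descends from a chronic myeloid leukemia line. CASB-labeled and unlabeled HAP1 nuclei were pooled, tagged together with the Tn5 transposase, which inserts adapters into open chromatin, and sorted singly into 2 plates of 96 wells. Which nuclei carried the label is not known here, so each plate was 1 mixed sample, nuclei were not treated as replicates, and no test was made. Each share has an exact 95% interval (Clopper-Pearson). The interval covers counting error alone and treats promoters, genes or read pairs as independent. Neighbouring promoters may share a regional level and overlapping features may share read pairs, which the intervals do not cover. The libraries were also amplified by PCR and carried no molecular identifiers.

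The nuclei held 20 to 15351 read pairs in features, with a median of 1647.5, and the totals of the plates were 241927 and 241240 read pairs. Among cell type markers, no feature held the start of PTPRC, CD34, SPI1, HBB, CD3E, KRT8 or KRT18, while the promoters of EPCAM, VIM and FN1 were seen in 6, 11 and 17 nuclei. Wells numbered 37 to 48, 73 to 84 and 85 to 96 that shared a position within a plate were not independent. Of 25114 features seen in exactly 2 nuclei, 71.04% had both nuclei in such wells, which made up 0.393% of all pairs of wells. Repeats between these wells accounted for 10.9% of the 15038 sightings of the widely open promoters and 9.03% of the 4288 sightings of the sparsely seen promoters. With these wells merged into 144 units, 423 of the 574 promoters were still seen in 20 or more units. Values for the merged units are given beside the results they bear on.

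A promoter is the stretch of DNA around the start of a gene where general transcription factors and RNA polymerase II assemble. Most human promoters lie in CpG islands, GC-rich stretches in which the CG dinucleotide has not been depleted, and these are commonly kept free of nucleosomes whether the gene is transcribed strongly or weakly. Housekeeping genes, needed by every cell, typically have such promoters. Short elements in the promoter recruit activators, among them the CCAAT box, bound by the trimeric factor NF-Y, and the GC box, bound by Sp1 and its relatives.

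The promoters below are shown because they carry, or lack, the elements that differed in frequency between the groups. Each runs 5′ to 3′ along the gene's strand from 120 bases before to 20 bases after the annotated gene start (140 bases, hg38), and capitals mark the letters CCAAT or GGGCGG on either strand, so that ATTGG and CCGCCC are their reverse forms. DUSP10 (chr1:221742070-221742209, minus strand), ZNF672 (chr1:248838090-248838229, plus strand), KBTBD3 (chr11:106077440-106077579, minus strand) and PCF11 (chr11:83156868-83157007, plus strand) were the 4 promoters seen in the most nuclei, and MCM3 (chr6:52284862-52285001, minus strand) is a member from the replication genes.
DUSP10: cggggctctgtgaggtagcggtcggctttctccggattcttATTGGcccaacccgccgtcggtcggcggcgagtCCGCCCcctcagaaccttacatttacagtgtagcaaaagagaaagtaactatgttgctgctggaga
ZNF672: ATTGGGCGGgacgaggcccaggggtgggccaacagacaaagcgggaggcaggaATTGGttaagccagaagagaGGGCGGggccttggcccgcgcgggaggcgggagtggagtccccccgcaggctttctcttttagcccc
KBTBD3: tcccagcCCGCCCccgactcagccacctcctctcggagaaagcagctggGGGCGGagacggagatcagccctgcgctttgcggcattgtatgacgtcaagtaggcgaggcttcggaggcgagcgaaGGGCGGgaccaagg
PCF11: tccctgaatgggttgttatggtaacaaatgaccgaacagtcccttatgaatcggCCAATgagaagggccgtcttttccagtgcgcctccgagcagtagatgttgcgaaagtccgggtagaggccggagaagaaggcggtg
MCM3: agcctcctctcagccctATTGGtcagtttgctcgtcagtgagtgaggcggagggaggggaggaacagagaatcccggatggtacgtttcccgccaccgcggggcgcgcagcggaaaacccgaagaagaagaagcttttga

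The other 3 are CBLB (chr3:105869533-105869672, minus strand), the member with the lowest CpG ratio at its annotated start, and the sparsely seen RPL11 (chr1:23691622-23691761, plus strand) and EIF4G1 (chr3:184314375-184314514, plus strand), each seen in 3 nuclei.
CBLB: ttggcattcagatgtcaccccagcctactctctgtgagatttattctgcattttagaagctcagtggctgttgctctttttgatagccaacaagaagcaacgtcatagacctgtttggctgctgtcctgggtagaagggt
RPL11: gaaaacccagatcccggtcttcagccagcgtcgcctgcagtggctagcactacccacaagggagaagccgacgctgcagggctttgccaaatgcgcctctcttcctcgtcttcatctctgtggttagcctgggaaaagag
EIF4G1: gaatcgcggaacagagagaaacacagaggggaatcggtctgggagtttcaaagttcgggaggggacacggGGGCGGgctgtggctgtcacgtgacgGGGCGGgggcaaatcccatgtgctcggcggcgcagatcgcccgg

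The widely open promoters were seen in a median of 24 nuclei and at most in 55. The largest class, 300 promoters, was seen in 20 to 24 nuclei, 145 in 25 to 29, 58 in 30 to 34, 43 in 35 to 39 and 28 in 40 to 55. Their read pairs ranged from 20 to 93 with a median of 31.5, which came to a median of 1.3 read pairs per positive nucleus. At the threshold, 73 promoters were seen in exactly 20 nuclei, among them NEGR1, ZNF687 and KCNJ10, and 85 in exactly 19, among them USP1, HDGF and MGST3. The read pairs of these 6 promoters overlapped, at 21 to 24 just inside and 24 to 30 just outside.

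The promoter seen in the most nuclei was that of DUSP10, a phosphatase that switches off the stress kinases p38 and JNK. It was seen in 55 nuclei, 31 of plate 1 and 24 of plate 2, with 93 read pairs in all. ZNF672, which encodes a zinc finger protein, followed with 54 nuclei, 23 of plate 1 and 31 of plate 2. The order of these neighbours differed between the plates, and with wells merged ZNF672 led with 50 units against 48 for DUSP10. KBTBD3, a protein with kelch repeats and a BTB domain, was seen in 25 nuclei of each plate. PCF11, a factor of messenger RNA cleavage and transcription termination, was seen in 49 nuclei. LCORL, a nuclear receptor corepressor relative, and CCDC90B, a mitochondrial coiled-coil protein, were each seen in 48. PCF11 and CCDC90B are neighbours on chromosome 11, at chr11:83156330-83157330 and chr11:83285868-83286868.

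The 25 promoters outside chromosome 8 seen in the most nuclei also included several known regulators, named here for their roles only. HLX, a homeobox factor, was seen in 46 nuclei and FZD1, a receptor for Wnt ligands, in 44. GSK3B, the kinase that marks beta-catenin for destruction, was seen in 41 nuclei, and TLE4, a corepressor of Wnt target genes, in 42. IL1RAP, the shared signaling chain of interleukin-1 family receptors, was seen in 41 and DMTF1, a Myb-like transcription factor, also in 41. None of these lay far from its neighbours in the ranking. Outside chromosome 8 it fell from 44 nuclei for FZD1 to 40 for PWWP2A, a reader of H2A.Z nucleosomes, over 18 promoters.

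The other genes among these 25 have varied roles. DESI2, a deSUMOylating peptidase, and RWDD1 were seen in 43 nuclei. EDEM3, a mannosidase of endoplasmic reticulum quality control, METTL13, which methylates the elongation factor eEF1A, COQ10B, a coenzyme Q carrier, STARD3NL, a late endosomal protein, TRIM58, a ubiquitin ligase, and BARD1, a ubiquitin ligase subunit of DNA repair, were each seen in 42. PITRM1, a mitochondrial peptidase, and ARRDC4, an arrestin-like adaptor, were seen in 41 nuclei, and SLC19A2, the thiamine transporter, and CCDC150 in 40.

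**Figure D1:**
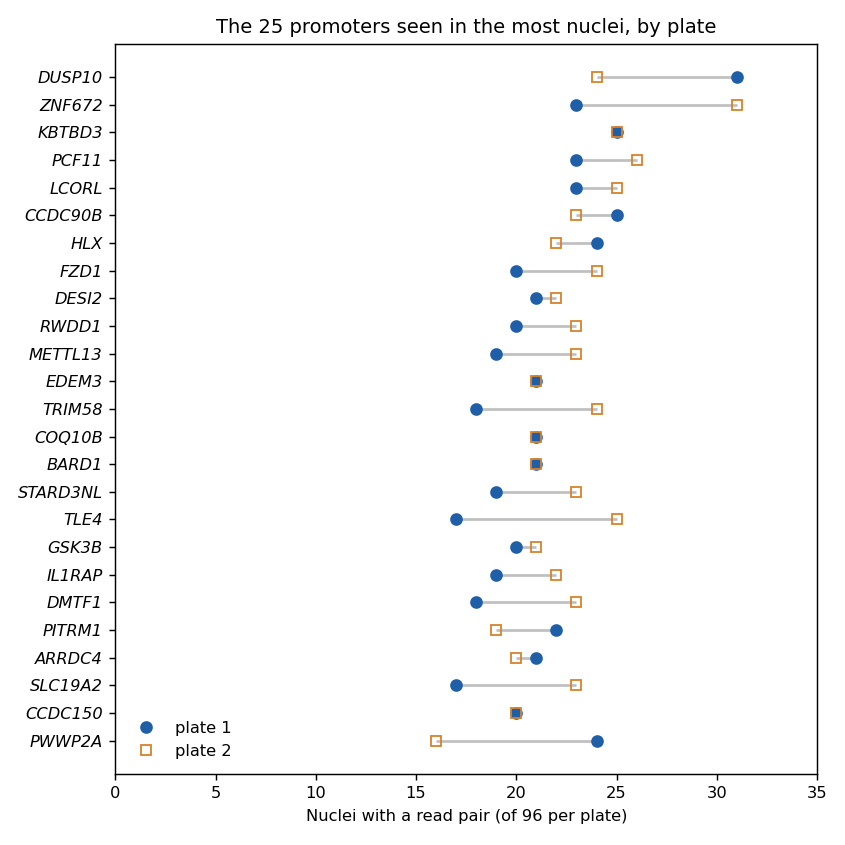
Nuclei with a read pair at each of the 25 promoters outside chromosome 8 seen in the most nuclei, of 96 per plate. Filled circles mark plate 1, open squares plate 2, and a line joins them. KBTBD3, EDEM3, COQ10B, BARD1 and CCDC150 coincide, while DUSP10 had 31 and 24 nuclei and PWWP2A 24 and 16.

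The plates gave similar values for most members. The promoters were seen in a median of 12 nuclei of plate 1, with a range of 4 to 31, and 13 of plate 2, with a range of 5 to 31. They took 4.13% (4.05 to 4.21) of the read pairs of plate 1 and 4.19% (4.11 to 4.27) of those of plate 2, against 1.03% and 1.11% for the sparsely seen promoters. More nuclei were positive in plate 1 for 255 members, in plate 2 for 265, and the numbers were equal for 54. The plates differed by 2-fold or more at 56 of the 574 (9.76%), near the 10% of all 1449 autosomal features seen in 20 or more nuclei. Toward plate 1 these were 24 members (4.18%) against a background of 4.21%, and toward plate 2 32 members (5.57%) against 5.8%. The most unequal were HMCN1, an extracellular matrix protein, with 4 and 17 nuclei, and NUDT7, a peroxisomal hydrolase, with 7 and 23. In the other direction stood CNOT4, a ubiquitin ligase tied to the CCR4-NOT complex, and METAP2, a methionine aminopeptidase, each with 15 and 5 nuclei.

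Deeper nuclei supplied most sightings. The 162 nuclei with more than 300 peaks saw between 7 and 284 of the 574 promoters, with a median of 70. With the nuclei divided by depth into 3 equal classes, the medians were 28, 70 and 173.5 promoters, and the deepest class made 62.3% of all sightings. The share of a nucleus's read pairs that fell in these promoters had a median of 3.78% in the shallow, 4.25% in the middle and 4.05% in the deep class. The share thus moved little with depth, while the number of promoters seen rose with it.

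Genes of the housekeeping lists took a similar or smaller share of the widely open promoters than of the others. The 16 lists of ribosome, proteasome, respiratory, splicing, transport and cell cycle genes took 46 of the 574 (8.01%, interval 5.93 to 10.5), against 128 of the 1285 sparsely seen promoters (9.96%, interval 8.38 to 11.7) and 698 of all 6423 (10.9%). The 10 lists of genes whose use is restricted to certain tissues took 17 (2.96%, interval 1.73 to 4.70), against 54 sparsely seen promoters (4.20%, interval 3.17 to 5.45) and 3.21% of all. In both cases the intervals of the widely open and sparsely seen promoters overlapped. Counted by gene, 46 of 658 housekeeping genes with a single-direction promoter were widely open (6.99%, interval 5.16 to 9.22), an interval that lay below the 9.45% over all 6188 genes, and 128 were sparsely seen (19.5%, interval 16.5 to 22.7), against 21.2% of all. Of the restricted genes with such a promoter, 17 were widely open (8.81%, interval 5.22 to 13.7). A further 477 of the 574 (83.1%) were in none of the 29 lists. With wells merged the housekeeping share was 7.57% at 20 or more units and 10.7% at 2 to 4 units.

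Cytosolic ribosomal protein, proteasome and translation factor genes had no widely open promoter, at a list size that could not show a difference from the general share. Of 32 cytosolic ribosomal protein genes with a single-direction promoter, 0 were widely open (interval up to 10.9%). Sparsely seen were 9 (28.1%, interval 13.7 to 46.7, against 21.2% of all genes), among them RPL11 in 3 nuclei and RPL14 in 4. Of 22 proteasome genes 0 were widely open (interval up to 15.4%), and of 27 translation factor genes also 0 (interval up to 12.8%), with EIF4G1, the scaffold of cap-dependent initiation, in 3 nuclei. Over all genes with a single-direction promoter, 585 of 6188 (9.45%) were widely open, so each interval of a widely open share still held the general share. Many genes of these lists could not enter the comparison: of 75 cytosolic ribosomal protein genes, 34 had no feature at the annotated start and 9 had one that also held a start on the other strand.

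Lists of mitochondrial and nuclear RNA machinery had 1 or 2 members each, and all their intervals contained the general share. The mitochondrial ribosome had 2 members of 34 (5.88%, interval 0.720 to 19.7), MRPS9 in 26 nuclei and MRPL17 in 25, and the respiratory chain 1 of 30 (3.33%, interval 0.0844 to 17.2), NDUFA4, a cytochrome c oxidase subunit, in 23. HNRNPD and HNRNPF, which bind pre-messenger RNA, were each seen in 23 nuclei and were the 2 of 41 in the splicing list (4.88%, interval 0.596 to 16.5). The helicase DDX18 was seen in 25 nuclei and DHX38, a splicing helicase, in 21, the 2 of 23 in their list (8.70%, interval 1.07 to 28.04). GTF2A1, a subunit of TFIIA, led 2 of 40 genes of the polymerase and Mediator list (interval 0.611 to 16.9) with 21 nuclei. KPNA4 and KPNA5, importins that carry proteins into the nucleus, were seen in 28 and 25 nuclei and were the 2 of 31 in theirs (6.45%, interval 0.791 to 21.4).

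Lists of folding and cell cycle genes lay above the general share, with intervals that contained it. Chaperones had 5 members of 31 genes (16.1%, interval 5.45 to 33.7), led by HSPA13, an Hsp70 relative, in 33 nuclei and DNAJC19, a cofactor of mitochondrial protein import, in 26. DNA replication and cell cycle genes had 7 of 44 (15.9%, interval 6.64 to 30.1). They were led by CCNG1, a cyclin induced by p53, in 38 nuclei and MCM3, a subunit of the replicative helicase, in 31. This list was a pattern on gene symbols, so its members, CDC73 and CCNT2 among them, need not act in replication or the cell cycle. Aminoacyl-tRNA synthetases had 3 of 16 (18.8%, interval 4.05 to 45.6), with TARS1 in 29 nuclei and EPRS1 in 21. Genes named TMEM, which share only a membrane span, had 11 of 79 (13.9%), with TMEM243 in 29 nuclei and TMEM45A in 28.

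The remaining housekeeping lists had shares below 9.45%, with intervals that contained it, as did zinc finger genes and solute carriers, which were not counted among the 16. Ubiquitin enzymes had 8 of 100 genes, led by RNF146, a ligase that reads poly-ADP-ribose, in 31 nuclei and UBA6, an activating enzyme, in 27. Vesicle traffic genes had 7 of 111, with VPS50, a tethering factor of recycling endosomes, in 39 nuclei and SNX14, a sorting nexin, in 31. Chromatin regulators had 4 of 52, with ING3, a reader in the NuA4 acetyltransferase complex, in 37 nuclei and CHD1, a nucleosome remodeler, in 36. DNA repair had 1 of 24, PARP2, a sensor of strand breaks, in 27 nuclei. Zinc finger genes had 16 of 207 (7.73%, interval 4.48 to 12.2), led by ZNF672 and by ZNF25 in 37 nuclei. Sparsely seen were 65 of the 207 (31.4%, interval 25.1 to 38.2), an interval above the 21.2% of all genes. Solute carriers had 7 of 85, with SLC25A13, a mitochondrial aspartate-glutamate carrier, in 24 nuclei after SLC19A2.

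Several members from the restricted lists encode proteins that are known from many cell types. CD55 and CD46, which protect cells from complement, were seen in 36 and 22 nuclei. CYP51A1, a demethylase of cholesterol synthesis, was seen in 30, and CYP2R1, a vitamin D hydroxylase, in 27. Others have narrower textbook roles. Of all genes with a single-direction promoter 9.45% were widely open and 21.2% sparsely seen. More sparsely seen than widely open genes was thus the general case. The sparsely seen share of all restricted genes was still above 21.2%, at 27.5% (interval 21.3 to 34.3). So were those of ion channels (37.5%, interval 22.7 to 54.2) and olfactory receptors (85.7%, interval 57.2 to 98.2). The intervals of the other restricted lists with such promoters contained 21.2%. Developmental factors had 4 of 51 widely open and 11 sparsely seen, and ion channels 4 and 15 of 40. G protein-coupled receptors had 2 and 6 of 29, and cadherins and their relatives 1 and 5 of 19. POU3F2, a factor of neural progenitors, was seen in 39 nuclei and DLX5, a factor of bone and forebrain, in 22. PCDH9, a neural protocadherin, was seen in 31 nuclei, SCN9A and SCN3B, subunits of voltage-gated sodium channels, in 26 and 25, GPR63 in 24, CXCL3, a chemokine, in 21, and IL12A, a cytokine subunit, in 20. Olfactory receptors had 0 of 14 widely open and 12 sparsely seen, and 400 of their 414 genes had no feature.

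**Figure D2:**
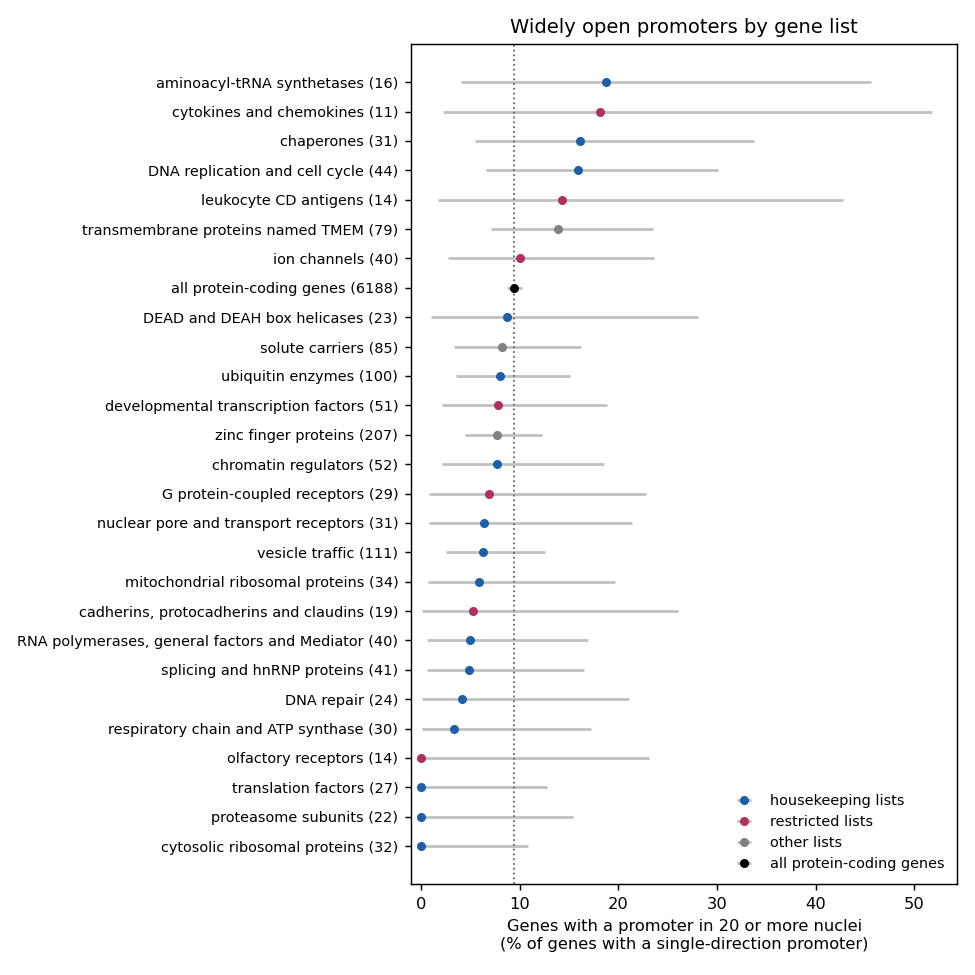
Percent of genes with a single-direction promoter whose promoter was seen in 20 or more nuclei, for each list with at least 10 such genes (number in parentheses), with exact 95% intervals as bars and the share over all genes (9.45%) as a dotted line. Chaperones and replication genes lie to the right of that line and ribosomal, proteasome and translation factor genes at 0, and the interval of every single list crosses it.

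Some pathways were traced with further lists written after the members had been seen, so their counts only describe where the members fall. The shares over all genes with a single-direction promoter were 9.45% widely open and 21.2% sparsely seen. Counts above or below these are no evidence of enrichment, because the lists were written with the members known. The cholesterol and isoprenoid pathway had 7 widely open genes among 16 with a single-direction promoter and 0 sparsely seen ones. They included HMGCS1, the synthase at the start of the pathway, in 35 nuclei (18 and 17 by plate), STARD4, a sterol carrier, in 34 (22 and 12), and MSMO1, a sterol oxidase, in 30 (14 and 16). IDI1, an isomerase of isoprenoid units, and INSIG2, which holds the sterol sensor in the endoplasmic reticulum, were each seen in 22 nuclei.

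Immediate early genes and feedback inhibitors of ERK signaling had 12 widely open genes of 31 and 2 sparsely seen ones. JUN, a subunit of AP-1, and DUSP6, the phosphatase of ERK, were each seen in 39 nuclei, PTGS2, the inducible cyclooxygenase, in 36, BTG1, an antiproliferative factor, in 32, and SPRY2, an inhibitor of receptor tyrosine kinase signaling, in 29. The start of PTGS2 lay in a second, overlapping feature seen in 21 nuclei, so a read pair could count in both. RGS2, ID2, GADD45A, PLK2 and ETV1 were seen in 27, 26, 23, 22 and 20 nuclei.

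Genes of amino acid synthesis and targets of the transcription factor ATF4 had 7 of 18 widely open and 2 sparsely seen. Among the 7 were the aminoacyl-tRNA synthetases EPRS1, TARS1 and LARS1, of which EPRS1 and TARS1 were already named above. The others were ASNS, asparagine synthetase, in 32 nuclei, and GPT2, an alanine aminotransferase, in 27. They also included CTH, cystathionine gamma-lyase, in 21, and PSAT1, of serine synthesis, in 20. ASNS was also among the members with the most read pairs per positive nucleus, 61 in 32 nuclei. Folding and glycosylation in the endoplasmic reticulum had 11 of 41 widely open and 3 sparsely seen. PDIA4, a disulfide isomerase, was seen in 38 nuclei and EDEM1 in 33. SEL1L, a scaffold of protein degradation, was seen in 31 and STT3B, an oligosaccharyltransferase subunit, in 27. Centrosome and cilium genes had 12 of 46 and 4 sparsely seen, with LCA5 in 36 nuclei, CEP350 in 33, TTC21B in 31 and CEP97 in 30. Spindle, kinetochore and condensin genes had 10 of 37 and 3 sparsely seen. ASPM and SMC2 were seen in 26 nuclei, FBXO5, an inhibitor of the anaphase-promoting complex, in 25, and ZWINT in 24. The members of these added lists held 22 to 93 read pairs each.

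The letters of the promoters differed between the groups for the CCAAT box above all. In windows from 250 bases before to 50 bases after the gene start, CCAAT on either strand was found in 295 of the 574 widely open promoters (51.4%, interval 47.2 to 55.6), in 436 of the 1285 sparsely seen ones (33.9%, interval 31.3 to 36.6) and in 38.8% of all single-direction promoters. Over the windows of all 19111 autosomal protein-coding genes the share was 35.6%. More than 1 match was found in 27.4% of the widely open, 10.5% of the sparsely seen and 15.3% of all single-direction promoters. The position was alike in both groups, with 31.5% of the matches of the widely open and 31.3% of those of the sparsely seen promoters lying 100 to 50 bases before the start. With wells merged the shares were 53.2% at 20 or more units and 34.1% at 2 to 4.

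The CCAAT difference was larger than the intervals at some levels of base composition and not at others. With all single-direction promoters divided into 5 equal classes by promoter GC content, the shares in the widely open and the sparsely seen ones were 48.5% and 39.2% in the lowest class, 60.6% and 40.7% in the second, 55.3% and 35.3% in the third and 52.5% and 25.9% in the fourth. In the highest class, from 73.3% GC upward, they were 29.3% and 28.9%. The intervals stood apart in the middle 3 of these classes and overlapped in the lowest (38.2 to 58.8 and 33.8 to 44.9) and the highest. In 5 such classes of the GC content of the surrounding 100 kb the widely open share ranged from 45.5% to 58.9% and the sparsely seen share from 26.8% to 39.1%, with intervals apart in the 3 classes of lowest GC and overlapping in the other 2, which held 49 and 22 widely open promoters.

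The GC box, GGGCGG, was found in 440 widely open promoters (76.7%, interval 72.98 to 80.1), in 67.2% of the sparsely seen ones (interval 64.5 to 69.7), in 71.3% of all single-direction promoters and in 52.6% of all genes. With wells merged the shares were 78.01% and 70.1%. In each of the 5 classes of promoter GC content the widely open share was the larger, but the intervals overlapped in all of them. It was 36.1% against 22.8% in the lowest class, 85.3% against 76.1% in the third and 98.7% against 95.4% in the highest. In the classes of surrounding GC the intervals stood apart only in the lowest, at 75.5% and 43.2%. The letters of other elements were about as frequent in both groups. CCGGAAG, the core of ETS factor sites, was found in 13.6% and 13.9%, with 15.4% of all single-direction promoters and 11.9% of all genes. GCGCATGC, bound by NRF1, was found in 5.40% and 4.44% (4.73% of all single-direction promoters), and ATGGCGG, bound by YY1, in 6.45% and 8.17% (7.54%). TATAAA, the TATA box, was found in 5.75% and 7.94%, against 6.60% of all single-direction promoters and 10.9% of all genes.

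The remaining elements had overlapping intervals too. The shares in the widely and the sparsely seen promoters were 3.31% and 3.04% for TGACGTCA, the cyclic AMP response element, with 3.38% of all single-direction promoters, and 9.06% and 10.6% for the E-box CACGTG, with 9.79%. They were 2.96% and 1.56% for CTCGCGAG, with 1.87%, and 3.83% and 3.66% for ACTACAA, bound by ZNF143, with 3.69%. For TGANTCA, bound by AP-1, they were 3.83% and 4.44%, with 3.92%, and for AGATAA, bound by GATA factors, 5.23% and 5.68%, with 5.15%. A match of letters is not evidence of binding, and E-box and CRE matches may overlap other elements.

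**Figure D3:**
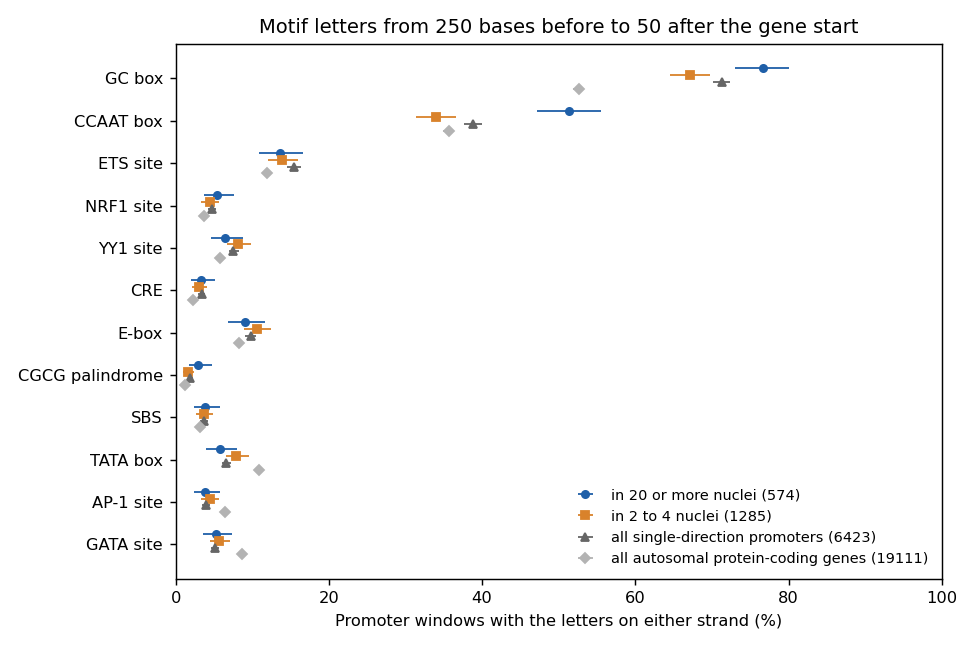
Percent of promoter windows holding the letters of each element on either strand, for promoters seen in 20 or more nuclei (circles), in 2 to 4 nuclei (squares), all single-direction promoters (triangles) and all autosomal protein-coding genes (diamonds), with exact 95% intervals. The circles and squares stand apart for the CCAAT box (51.4% and 33.9%) and the GC box (76.7% and 67.2%) and overlap for the other 10 elements.

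The printed promoters are picked examples and do not show the frequencies. DUSP10 and ZNF672 carried both elements close to the start, PCF11 and MCM3 a single CCAAT box, and KBTBD3 3 GC boxes and no CCAAT box. LCORL, in 48 nuclei but not printed, carried neither element over the same stretch. EIF4G1, seen in 3 nuclei, carried 2 GC boxes, and RPL11 neither element within these 140 bases. Neither of these sparsely seen promoters carried CCAAT, which 33.9% of that group held in the longer window. CBLB, a ubiquitin ligase that restrains receptor signaling, carried neither element but was seen in 33 nuclei. Its annotated start lay 325 bases upstream of the feature's centre, and the CpG ratio was 0.198 around the start and 0.762 over the feature.

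CpG islands were common in both groups. The ratio of observed to expected CG dinucleotides over the feature had a median of 0.791 in the widely open and 0.762 in the sparsely seen promoters. In the window around the start the medians were 0.812 and 0.809, against 0.830 for all single-direction promoters. There the ratio was at least 0.6 for 514 of the 574 (89.5%, interval 86.8 to 91.9) and 77.04% of the 1285 (interval 74.6 to 79.3), against 85.3% of all. With wells merged these shares were 89.4% and 81.1%. The median GC content of the window was 64.3% in the widely open and 64.7% in the sparsely seen promoters. Members with a low ratio at the annotated start included EYS, a photoreceptor protein, with 0.216 in 20 nuclei, DDIAS with 0.223 in 32, and S100A11, a calcium-binding protein, with 0.226 in 23. In DDIAS the ratio over the feature was 0.498, while in EYS and S100A11 the whole feature was also poor in CG, at 0.147 and 0.222.

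The surroundings of the promoters differed more than the promoters themselves. The median GC content of the 100 kb around the feature was 39.7% for the widely open promoters, with quartiles of 37.8% and 42.1%, against 45.8% for the sparsely seen ones and 42.7% for all. The share of widely open promoters fell with surrounding GC, from 20.3% (interval 18.1 to 22.6) in the lowest of the 5 classes over 10.5%, 8.33% and 3.82% to 1.71% (interval 1.08 to 2.58) in the highest, while the share of sparsely seen ones rose from 10.8% to 35.6%. In 5 classes of the GC content of the promoter itself, the share of widely open ones was 7.34%, 10.4%, 11.5%, 9.49% and 5.91%, with no such fall. Across the 6423 promoters, which share libraries and depth, the number of positive nuclei had a Spearman's rho of -0.38 with surrounding GC and -0.02 with promoter GC. With wells merged the medians of surrounding GC were 39.2% at 20 or more units and 45.5% at 2 to 4.

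**Figure D4:**
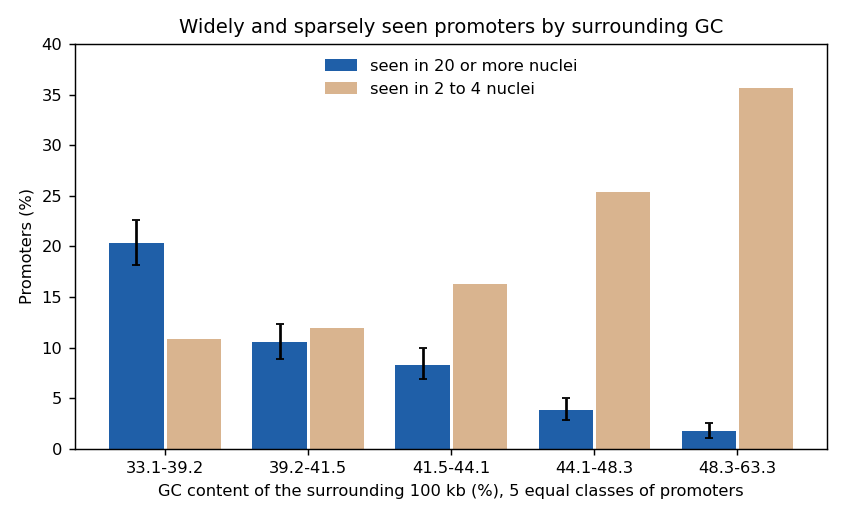
Percent of single-direction promoters seen in 20 or more nuclei (dark bars, with exact 95% intervals) and in 2 to 4 nuclei (light bars, drawn without intervals) in 5 equal classes of the GC content of the surrounding 100 kb. The dark bars fall from 20.3% to 1.71% and the light bars rise from 10.8% to 35.6%.

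The fall was also seen among housekeeping genes. Their share of widely open promoters was 22 of 109 (20.2%, interval 13.1 to 28.9) in the lowest class of surrounding GC. It was 3 of 150 (2.00%, interval 0.414 to 5.73) in the highest. Both were close to the shares over all promoters in the same classes, 20.3% and 1.71%. In the classes between, from low to high GC, the housekeeping shares were 7.75%, 5.11% and 1.49%. The shares over all promoters were larger there, at 10.5%, 8.33% and 3.82%, but lay within the housekeeping intervals. Among restricted genes no fall was shown, with 10.2% (interval 3.82 to 20.8), 12.8%, 9.09%, 5.88% and 2.44% (interval 0.0617 to 12.9) from the lowest to the highest class. The part of surrounding base composition in the difference between lists was not tested.

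Widely open promoters lay in gene-poor stretches. Within 500 kb on each side of the start they had a median of 5 other protein-coding gene starts, against 13 for the sparsely seen promoters and 8 for all. There were at most 5 such starts at 303 members (52.8%, interval 48.6 to 56.9), 16.1% of the sparsely seen promoters and 29.7% of all. At 37 members there was none, DUSP10, FZD1, TLE4 and CBLB among them, whose widths of empty sequence were not measured further. At the other end, 22 members lay in the top class of surrounding GC or just at its edge. POLG, the mitochondrial DNA polymerase, was seen in 39 nuclei at a surrounding GC of 49.2%, and PDIA4 in 38 at 48.4%. GMPPA and CDK5 were the members with the highest surrounding GC, 57.4% each, and were seen in 24 and 21 nuclei.

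The chromosomes also differed. The share of single-direction promoters that were widely open was 59 of 363 on chromosome 7 (16.3%, interval 12.6 to 20.5), 13.2% on chromosome 13, 12.9% on chromosome 1 and 12.8% on chromosome 4. It was 0 of 237 on chromosome 19 (interval up to 1.54), 0 of 75 on chromosome 22 (interval up to 4.80), 2 of 238 on chromosome 17 and 1 of 152 on chromosome 20. Features that held no protein-coding start were also seen in 20 or more nuclei most often on chromosome 7 (1.604%), rarely on chromosome 17 (0.0910%) and never on chromosomes 19 and 22. Other chromosomes did not keep the order, with 1.29% of such features on chromosome 9 and 1.02% on chromosome 4, whose promoters stood at 6.18% and 12.8%. Median surrounding GC was 51.7% for the promoters of chromosome 19 and 39.4% for those of chromosome 4.

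**Figure D5:**
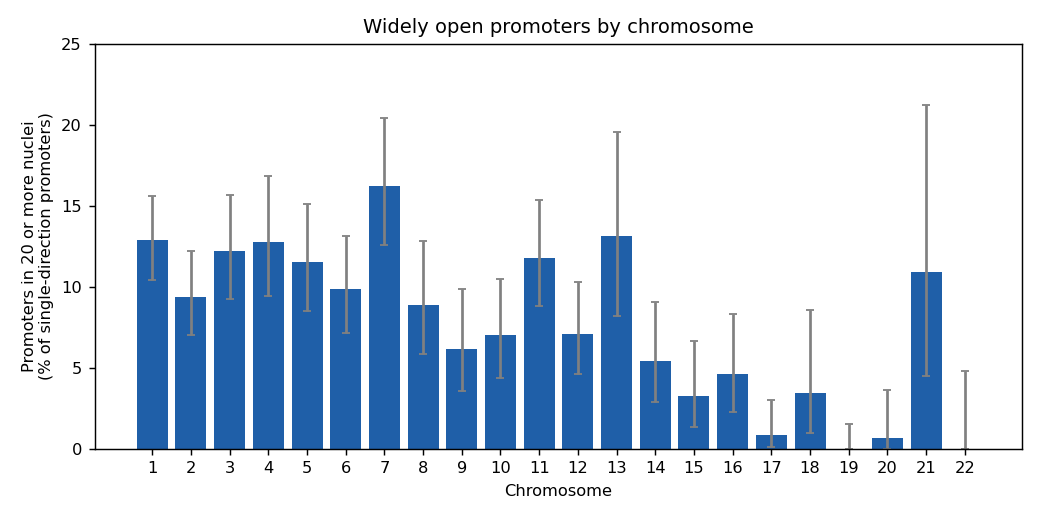
Percent of the single-direction promoters of each chromosome that were seen in 20 or more nuclei, with exact 95% intervals. Chromosome 7 stands highest at 16.3%, and chromosomes 19 and 22 have none.

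The arms of chromosome 1 differed at like surrounding GC. On the long arm 74 of 369 promoters (20.1%, interval 16.1 to 24.5) were widely open and on the short arm 13 of 307 (4.23%, interval 2.27 to 7.13), at median surrounding GC of 43.1% and 42.8%. Features without a protein-coding start moved the same way, with 2.25% and 0.545% in 20 or more nuclei and 6.17 and 5.11 read pairs per feature. The part of this regional level in the number of nuclei per promoter was not tested. In windows of 10 Mb with at least 15 promoters, the highest shares were also on the long arm of chromosome 1, with 17 of 33 between 240 and 250 Mb and 13 of 26 between 170 and 180 Mb, followed by 7 of 16 between 80 and 90 Mb of chromosome 11, and 78 of the 211 windows had no member. Several of the 25 promoters outside chromosome 8 seen in the most nuclei lay on the long arm of chromosome 1. They were DUSP10, ZNF672, HLX, DESI2, METTL13, EDEM3, TRIM58 and SLC19A2.

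The start of a long noncoding RNA on the opposite strand lay in the same feature at 158 of the widely open promoters (27.5%, interval 23.9 to 31.4), at 11.8% of the sparsely seen ones (interval 10.1 to 13.7) and at 17.2% of all. The widely open share was the larger in each class of surrounding GC, from 29.9% against 16.5% in the lowest to 18.2% against 11.1% in the highest, where it rested on 22 promoters, with overlapping intervals in the third and the fifth class. HLX, GSK3B, BARD1 and CBLB were such members. With wells merged the shares were 28.4% and 12.7%. Because read pairs carry no strand, openings that belong to the noncoding RNA and to the gene could not be told apart.

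The annotated start sat closer to the middle of the feature in the widely open promoters, within 250 bases of the centre in 85.02% (interval 81.8 to 87.8) against 71.6% (interval 69.04 to 74.05) of the sparsely seen ones and 74.6% of all. Another feature was centred within 5 kb of 54.7% of the widely open and 49.4% of all single-direction promoters, and the sparsely seen ones stood further apart at 29.8%. Median gene lengths were 48973 bases for the widely open, 42448 for all and 33260 for the sparsely seen promoters, while both groups had a median of 7 annotated transcripts. The start was on the plus strand in 49.7% and 50.97%. More than 1 gene started in the feature at 13 members.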

How the data were processed

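Plate-based snATAC-seq counts of 192 HAP1 nuclei, 96 from each of 2 plates, were used. According to the Methods, the authors trimmed reads, set CASB barcode reads aside, mapped what remained to hg38, and discarded mitochondrial reads, reads of mapping quality below 20 and, nucleus by nucleus, duplicates. They called peaks with MACS2 on all nuclei together and widened these to a fixed length. The deposited values are read pair counts per feature and nucleus from featureCounts (version 1.6.0), without normalization, and a pair that overlapped several features counted in each. All 192 columns were matched to a nucleus and 0 were left over.

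Gene starts were the 5′ ends of GENCODE 44 gene records on hg38, whose chromosome names and lengths fit the features. Sequences were read from the hg38 genome. Surrounding GC covered 50 kb on each side of the feature's centre. The 29 gene lists were patterns on gene symbols. The members, lists and motifs were chosen with earlier results of these data known, and the lists of 6 pathways after the members had been seen. Named were the 25 promoters seen in the most nuclei, the first 2 of each list, the first 3 at exactly 20 and 19 nuclei, the 5 with the most and the 5 with the fewest read pairs per positive nucleus and the 5 most unequal between plates in each direction, with ties in genome order, and not all of these are printed. Genes of chromosome 8 were counted in the groups and shares but not named, so rankings of named genes leave them out. Other genes named for their sequence or surroundings were chosen after their values were seen.

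No test was made, since each plate was 1 pooled sample. Alternatives covered the number of nuclei, the nuclei and wells counted, gene or transcript starts, windows and thinning to 600 read pairs. No doublet caller was run. The scripts were tested on simulated data. The software was pysam 0.24.0, matplotlib 3.10.9, pandas 2.3.3, SciPy 1.17.1, NumPy 2.4.6 and Python 3.11.15.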

Additional observations from a re-analysis of the deposited data

How the results depend on the processing

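The number of widely open promoters depended on the threshold, with 1135 at 15 or more nuclei and 129 at 30 or more, and 2 when a nucleus needed 2 or more read pairs. With wells 37 to 48 and 73 to 96 left out it fell to 55 in 120 nuclei, the sparsely seen promoters rose to 2725, and 3.64% of the 55 were in housekeeping lists. With 5′ ends of all protein-coding transcripts as starts, the sparsely seen promoters numbered 2064 and the widely open ones 703. At 2 or more read pairs the 2 promoters left gave 0% in housekeeping lists, 0% in restricted lists and a CpG ratio of 0.748. The CpG ratio was 0.812 in the window around the start. Over the whole feature, the motif shares of the widely open promoters were 95.1% for the GC box, 74.4% for CCAAT, 26.3% for ETS, 7.67% for NRF1, 18.6% for YY1, 21.95% for the E-box, 4.88% for CTCGCGAG, 10.8% for ACTACAA, 19.3% for TATA, 11.7% for AP-1 and 19.5% for GATA, as the window is longer; CCAAT was then at 62.9% in the sparsely seen ones. The share of read pairs was 3.75% binarized and 4.08% after thinning of 146 nuclei. Of 49 alternatives, 25 stayed within 1.5 times the count or within the interval of the value reported. The plate ratio in passing nuclei was added after seeing the data and had the same median of 1. No paired analysis was possible because each plate was 1 pooled sample and no groups were compared by a test. Counts of 1 to 2 read pairs per nucleus limit what a single nucleus shows.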

Other observations

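Members with the fewest read pairs per positive nucleus included BCLAF1, a nuclear RNA-binding protein, with 23 read pairs in 23 nuclei, and GALNT18, a glycosyltransferase, with 20 in 20. Those with the most included SNX14, with 60 read pairs in 31 nuclei, FGGY, a sugar kinase, with 70 in 38, and NUDT16, a decapping hydrolase, with 58 in 32. The highest count in a single nucleus was 12 read pairs, at METTL13, followed by 10 at STARD3NL. Of the sparsely seen promoters, 56.2% had no nucleus with more than 1 read pair, against 0.523% of the widely open ones. This contrast describes the rule and is not a finding, since fewer positive nuclei leave fewer places for a second read pair.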
